A study of Mactra quadrangularis with 6 samples.

Results

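Fatty acids are built from citrate in the cytosol by 3 enzymes, and the mantle transcripts of these enzymes in the surf clam Mactra quadrangularis (Mactra veneriformis) are described here. The members were given as 3 gene identifiers of the deposited table, which lists 25145 genes: ATP-citrate synthase (Mve12G006360), an acetyl-CoA carboxylase-like gene (Mve05G013740) and fatty acid synthase (Mve01G012410). They were chosen by measured values, namely counts and FPKM that were lower in the acidified libraries of this same experiment. Their difference between the groups is therefore given as a description, without a test, and supports nothing by itself. All 3 passed the filter on low counts.

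The experiment sequenced messenger RNA of the mantle, the tissue that secretes the shell, from 3 libraries of clams under ocean acidification stress (labelled acidified here) and 3 libraries of clams in normal seawater (control). Genotype, strain, age, dose and duration are not stated, and the series text speaks of exposure to high pH, which runs against the word acidification. The sources do not state whether each library is a separate animal, so the spread between libraries may be technical. Total counts ran from 28482358 to 37066703 per library. Of the mantle and shell marker genes, the perlucin, tyrosinase and shell matrix type, 41 were listed after accidental matches were left out and 3 of these had no count. They were led by a Pif-like gene at a mean of 554 FPKM (counts scaled by library size and transcript length) and a tyrosinase at 397. Their summed FPKM was 1143 to 2111 in the acidified libraries and 1032 to 1450 in the controls.

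ATP-citrate synthase, also called ATP-citrate lyase, cleaves citrate that has left the mitochondrion into acetyl-CoA and oxaloacetate. Acetyl-CoA carboxylase, a biotin enzyme, adds a carboxyl group to make malonyl-CoA, the committed step, and in animals it is switched off by AMP-activated protein kinase. Fatty acid synthase, a large multidomain protein in animals, then joins malonyl units with electrons from NADPH until palmitate is released. In vertebrates the genes are driven together by sterol regulatory element-binding protein 1 (SREBP-1) and by the carbohydrate-responsive factor ChREBP with its partner MLX, and the fatty acids go into membranes and stored triglycerides.

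The gene names are the table's best matches in other species. ATP-citrate synthase lies on chromosome 12 (21580076 to 21718956, plus strand), matches an oyster protein and carries the enzyme code for ATP citrate synthase. The carboxylase-like gene lies on chromosome 5 (45201304 to 45279519, minus strand), and its annotation names both acetyl-CoA carboxylase and biotin carboxylase activity. Fatty acid synthase lies on chromosome 1 (38136066 to 38172897, plus strand), matches a brachiopod protein, and its annotation lists the acetyl and malonyl transferase, ketoacyl synthase, reductase, dehydratase and thioesterase activities of the animal enzyme. The genes span 138881, 78216 and 36832 bases, introns included, and no other gene in the table overlaps any of them. These positions are those of the deposited table, whose genome build is not given in any source used.

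Of the 3 steps, fatty acid synthase held the highest level per transcript length in every library and differed most between the groups, with 8.33 ± 2.06 FPKM (SD, n = 3) in the acidified and 45.2 ± 21.7 (SD, n = 3) in the control libraries. Acetyl-CoA carboxylase stood at 2.70 ± 0.360 against 6.90 ± 1.72 FPKM and ATP-citrate synthase at 2.04 ± 0.515 against 5.00 ± 0.798 FPKM (SD, n = 3 each). In each of the 3 genes every acidified library lay below every control library, which was also the case for 13.4% of the 17790 genes tested. Since the genes were picked for being lower, nothing is read from that count. No gene in the table passed edgeR's quasi-likelihood test at a Benjamini-Hochberg adjusted p of 0.05 (0% called). In bulk tissue, fewer cells of a type and less RNA per cell cannot be told apart.

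The first step, ATP-citrate synthase, had 1.59, 1.92 and 2.60 FPKM in acidified replicates 1, 2 and 3, from 229, 282 and 485 counts. The control replicates 1, 2 and 3 had 5.22, 4.12 and 5.67 FPKM, from 834, 670 and 885 counts. The highest acidified library was replicate 3 and the lowest control was replicate 2, and the FPKM of that control was 1.58 times that of the acidified library. After TMM scaling, which sets libraries level on the bulk of genes, the same gap was only 1.22 times. The log2 fold change was -0.93 ± 0.27 (SE), or 1.91-fold lower.

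The second step, acetyl-CoA carboxylase, had 2.37, 3.08 and 2.63 FPKM in acidified replicates 1, 2 and 3, from 876, 1165 and 1261 counts. The control replicates had 8.83, 6.33 and 5.53 FPKM, from 3623, 2645 and 2222 counts. The acidified libraries were close together, with the highest 1.30 times the lowest, while the controls spread 1.59 times, with replicate 1 on top. The log2 fold change was -1.02 ± 0.26 (SE), or 2.02-fold lower, and the gap between the nearest libraries was 1.79 times in FPKM and 1.30 times after TMM scaling.

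The last step, fatty acid synthase, had 10.6, 7.81 and 6.58 FPKM in acidified replicates 1, 2 and 3, from 3003, 2264 and 2422 counts. The control replicates had 69.0, 39.9 and 26.6 FPKM, from 21742, 12814 and 8204 counts. The controls themselves spread 2.59 times, the widest spread of the 3 genes in either group, and control replicate 3 was still 2.51 times the highest acidified library in FPKM and 2.02 times after TMM scaling. The log2 fold change was -2.13 ± 0.38 (SE), or 4.39-fold lower. Without control replicate 1 the log2 fold change was -1.67.

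**Figure D1:**
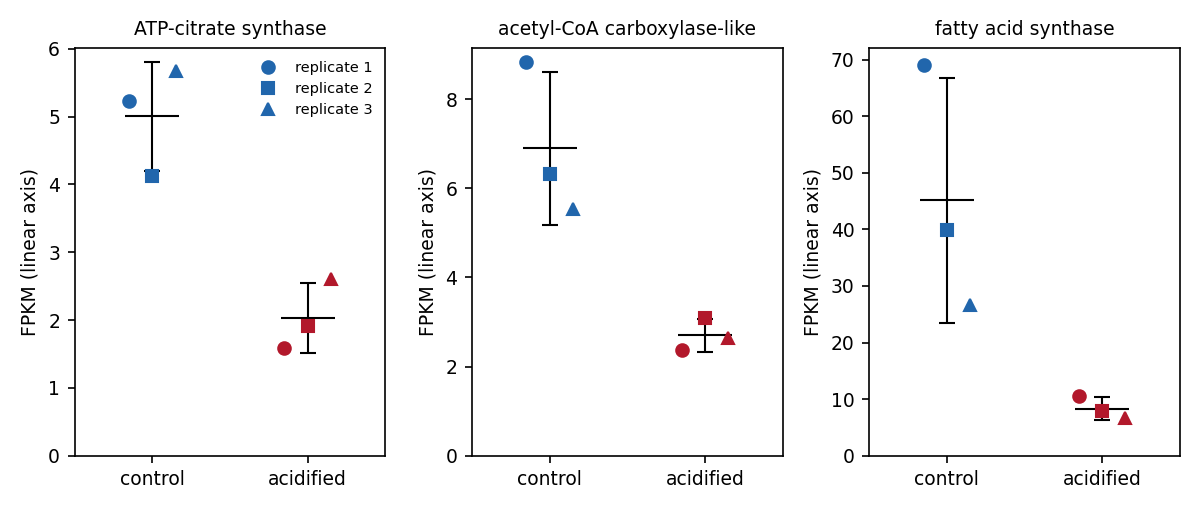
FPKM (linear vertical axis from 0) of the 3 enzymes in the control and acidified libraries, with 1 symbol per replicate and the mean ± SD of 3 libraries in black. In each panel the acidified libraries lie below the controls, and the fatty acid synthase controls spread widely, from 26.6 to 69.0 FPKM.

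Ranked against the genes tested, fatty acid synthase stood above most of the transcriptome in the controls, at percentiles 94.8, 92.2 and 88.5 of FPKM in control replicates 1, 2 and 3. In the acidified libraries it stood at percentiles 79.4, 75.3 and 72.6. Acetyl-CoA carboxylase moved from percentiles of 62.7 to 74.6 in the controls to 48.5 to 56.8 in the acidified libraries, and ATP-citrate synthase from 58.1 to 63.5 to 39.4 to 53.9. On the log2 fold change scale, 202 tested genes (1.14%) lay at or below fatty acid synthase, 1526 (8.58%) at or below acetyl-CoA carboxylase and 1797 (10.1%) at or below ATP-citrate synthase. The first gene thus sat near the lower end of the distribution, while the other members sat among many genes with a like difference.

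The enzymes did not order the libraries in the same way. In FPKM, control replicate 1 was highest for fatty acid synthase and for acetyl-CoA carboxylase, but control replicate 3 was highest for ATP-citrate synthase. After TMM scaling, control replicate 1 was highest for ATP-citrate synthase as well, at a scaled count of 23.6 against 23.3 in control replicate 3. The order of the controls thus depended on the scaling. Among the acidified libraries, replicate 1 was highest for fatty acid synthase and lowest for both other enzymes, in FPKM and after TMM scaling. As a measure of likeness, the root mean square difference of the centred log2 CPM profiles (CPM, counts scaled to library size) over the 6 libraries was 0.32 between ATP-citrate synthase and acetyl-CoA carboxylase, 0.62 between acetyl-CoA carboxylase and fatty acid synthase and 0.79 between ATP-citrate synthase and fatty acid synthase.

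Ratios of FPKM within a library need no scaling between libraries. Fatty acid synthase stood at 7.81, 6.31 and 4.81 times acetyl-CoA carboxylase in control replicates 1, 2 and 3 and at 4.47, 2.53 and 2.50 times in acidified replicates 1, 2 and 3, so the groups did not overlap but lay close, with acidified replicate 1 just under control replicate 3. Against ATP-citrate synthase the ratio was 13.2, 9.69 and 4.70 in the controls and 6.67, 4.08 and 2.53 in the acidified libraries, and here the groups overlapped. Acetyl-CoA carboxylase to ATP-citrate synthase stood at 1.40 ± 0.375 in the controls and 1.37 ± 0.317 in the acidified libraries (SD, n = 3 each), with the acidified libraries inside the range of the controls. The first and second steps thus kept a like proportion in both groups, within the spread, while the share of fatty acid synthase in the summed FPKM of the enzymes ran from 70.4% to 83.1% in the controls and from 55.7% to 72.8% in the acidified libraries, which overlap. These ratios come from the comparison by which the genes were chosen and were not tested.

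**Figure D2:**
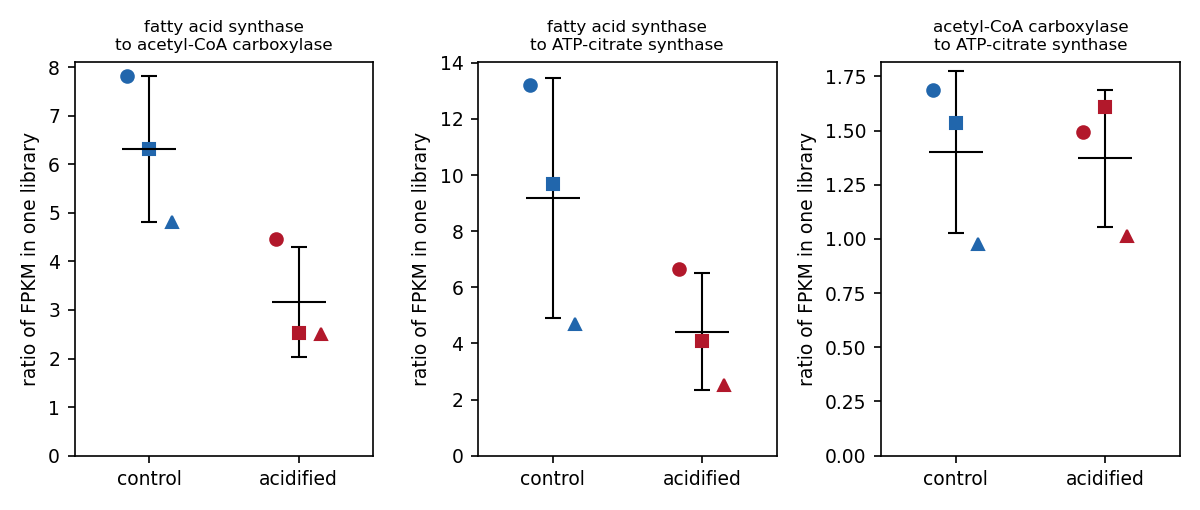
Ratio of FPKM between pairs of the enzymes within each library (linear axis from 0), with 1 symbol per replicate and the mean ± SD of 3 libraries in black. Both ratios with fatty acid synthase have a lower mean in the acidified libraries, with overlap in the ratio to ATP-citrate synthase, and the acidified ratios of acetyl-CoA carboxylase to ATP-citrate synthase lie inside the range of the controls.

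Transcript length bears on these values. From the ratio of count to FPKM, the carboxylase transcript was 2.57 times and the fatty acid synthase transcript 1.97 times as long as that of ATP-citrate synthase, and relative to the median tested gene the lengths were 2.36 (ATP-citrate synthase), 6.06 (acetyl-CoA carboxylase) and 4.65 times (fatty acid synthase). A raw count therefore cannot be compared between the enzymes. Long transcripts were lower in the acidified libraries in general: the decile of tested genes with the longest transcripts, which holds fatty acid synthase and acetyl-CoA carboxylase, had a median log2 fold change of -0.36 (quartiles -0.70 and -0.04), and decile 9, which holds ATP-citrate synthase, had -0.26 (quartiles -0.67 and 0.11). Within their own decile of 1779 genes, 17 lay at or below fatty acid synthase, 195 at or below acetyl-CoA carboxylase and 254 at or below ATP-citrate synthase. With the trend over length removed from each library, the log2 fold change was -1.77 for fatty acid synthase, -0.62 for acetyl-CoA carboxylase and -0.61 for ATP-citrate synthase. Each value thus became less negative with this step, from -2.13, -1.02 and -0.93 in the same order.

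**Figure D3:**
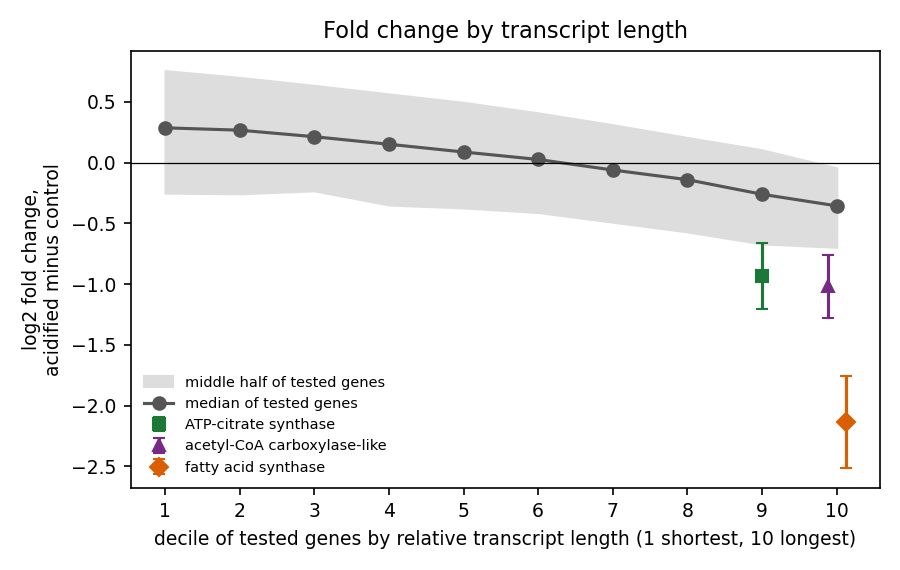
Log2 fold change (acidified minus control, TMM scaling) against the decile of tested genes by relative transcript length, with the median as a line, the quartiles as a band and the 3 enzymes as symbols with SE. The median falls from 0.29 in the shortest decile to -0.36 in the longest, and fatty acid synthase at -2.13 lies far under the band.

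Scaling shifts all 3 values together. With library size as the only scaling the median of all tested genes was -0.33 in place of -0.00, and the log2 fold changes were -2.42 for fatty acid synthase, -1.34 for acetyl-CoA carboxylase and -1.28 for ATP-citrate synthase. FPKM values are not TMM scaled, so the control to acidified ratios of mean FPKM, 5.42, 2.56 and 2.46 in the same order, are larger than the folds above.

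Other genes of the pathway were taken from 8 lists of description words, 88 genes in all with 80 tested, the 3 enzymes left out. The lists were chosen with earlier results of these data known. Their shares beside those of all genes, here and for each list below, are therefore a description only. The edgeR test called 0 of the 80 genes at an adjusted p under 0.05. At an unadjusted p under 0.05, 13 of the 80 lay lower (16.3%, beside 8.13% of all genes) and 3 higher (beside 9.29%). DESeq2 called 4 lower (beside 2.96% of all genes) and 1 higher (beside 4%). Without the genes matched by accident, 69 were tested, of which 10 lay lower (14.5%) and 3 higher at that unadjusted p. DESeq2 then called 3 lower (4.35%) and 1 higher. The acidified libraries all lay below the controls in 20 of the 80 genes, or 25%, beside the 13.4% given above. The median log2 fold change was -0.16, beside -0.00 over all genes, and -0.09 beside 0.02 with the length trend removed. With library size as the only scaling, 27 lay lower and 0 higher at that p. The share of all tested genes that lay lower at that p with this scaling is not given, so nothing is read from the 27. Over all genes the share of higher genes among those at that p was 15.5%, against 53.3% with TMM scaling.

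Among 19 tested regulators, 6 lay lower (31.6%, beside 8.13% of all genes) and 2 higher (beside 9.29%) at that unadjusted p. In 10 (52.6%, beside 13.4% of all genes) the acidified libraries all lay below the controls. The median log2 fold change was -0.47, and -0.41 with the length trend removed. A pair of genes described as SREBP-1-like, the transcription factor of lipid synthesis, was the most abundant of the list. The more abundant, Mve09G009320, had 79.6, 65.5 and 65.0 FPKM in the acidified libraries and 141, 109 and 108 in the controls, a log2 fold change of -0.45 ± 0.19. The other, Mve09G009630, had 36.1, 44.3 and 40.4 FPKM against 106, 84.3 and 71.2, a log2 fold change of -0.78 ± 0.24. The groups did not overlap in either gene, and the adjusted p in edgeR was 0.285 and 0.177. They share a description, so reads may be shared between them.

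The ChREBP-like gene Mve05G011320, a relative of the glucose-responsive factor, had 3.81, 2.18 and 1.94 FPKM in the acidified libraries and 5.07, 6.61 and 7.81 in the controls (log2 fold change -0.97 ± 0.28, edgeR adjusted p = 0.162). An MLX-interacting protein-like gene of the same list (Mve11G013530), named after its values were seen, was at 0.11 ± 0.42, and its groups overlapped. On the higher side, a biotin-protein ligase-like gene, Mve14G012450, had the smallest p. Biotin-protein ligase attaches biotin to carboxylases such as acetyl-CoA carboxylase. Its log2 fold change was 0.70 ± 0.18, with 20.9 FPKM on average in the acidified libraries and 16.3 in the controls (edgeR adjusted p = 0.144), and no biotin-protein ligase-like gene other than this lay above 0. Further genes, picked after their values were seen, included insulin-induced gene 2-like (Mve12G004960, whose relatives hold the SREBP pathway in the endoplasmic reticulum) at -0.80 ± 0.27. The SREBP cleavage-activating protein-like gene (Mve12G007180) was at -0.99 ± 0.37 and malonyl-CoA decarboxylase (Mve05G008710), which breaks malonyl-CoA down, at 0.56 ± 0.20. Of the AMP-activated kinase, the subunit beta-1-like gene (Mve02G015850) was at -1.09 ± 0.46. Its gamma-2-like gene (Mve12G011450) was at -0.47 ± 0.22 and its catalytic alpha-2-like gene (Mve03G003110) at -0.17 ± 0.21. None had an edgeR adjusted p under 0.05.

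The 9 tested genes that supply carbon had a median log2 fold change of -0.55, and of -0.49 with the length trend removed. At the unadjusted p 3 of them lay lower (33.3%, beside 8.13% of all genes) and 0 higher (beside 9.29%). The cytoplasmic acetyl-coenzyme A synthetase-like gene Mve03G002330, which makes cytosolic acetyl-CoA from acetate and so feeds the same pool as ATP-citrate synthase, had 3.67, 3.42 and 2.31 FPKM in the acidified libraries and 13.6, 7.68 and 8.99 in the controls. The groups were far apart, the log2 fold change was -1.36 ± 0.29, and the adjusted p was 0.120 in edgeR and 0.00137 in DESeq2. The other 2 lower genes were acetoacetyl-CoA synthetase-like (Mve11G002070 at -1.05 ± 0.29 and Mve11G002140 at -0.73 ± 0.22), which use acetoacetate and were matched by the letters of acetyl-CoA synthetase. Without that pair the median of the list was -0.31. The mitochondrial enzymes of the list lay on both sides of 0, and none passed the unadjusted p. Citrate synthase (Mve12G006590) stood at 269 against 290 FPKM, a log2 fold change of 0.23 ± 0.19. Pyruvate carboxylase (Mve02G012180) was at -0.08 ± 0.22, the E1 beta subunit of pyruvate dehydrogenase (Mve08G001140) at -0.31 ± 0.20, its acetyltransferase component (Mve18G003670) at -0.21 ± 0.27 and the mitochondrial acetyl-CoA synthetase 2-like gene (Mve02G020520) at -0.55 ± 0.68. Whether these differ from the cytoplasmic synthetase was not tested. The tricarboxylate transport protein (Mve11G012110), the citrate carrier, was named after its values were seen. It was scarce at 0.712, 0.715 and 0.492 FPKM against 1.70, 1.18 and 1.24, and its groups did not overlap.

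The 6 tested genes that supply NADPH had a median log2 fold change of 0.03, and 0 passed the unadjusted p in either direction. The mitochondrial NADP isocitrate dehydrogenase (Mve18G001400) was at 0.01 ± 0.25 and 6-phosphogluconate dehydrogenase (Mve04G011330), of the pentose phosphate pathway, at -0.12 ± 0.17. A pair of NADP malic enzyme-like genes lay on either side of 0, Mve05G014030 at 0.62 ± 0.56 and Mve05G012870 at -0.16 ± 0.20. Values of the named NADPH genes thus lay within about their error of 0, which does not show that the groups were equal.

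Among 14 tested enzymes that lengthen and desaturate fatty acids, the median log2 fold change was -0.45, and -0.61 with the length trend removed. At the unadjusted p 1 was lower (7.14%, beside 8.13% of all genes) and 0 higher (beside 9.29%). The lower gene was very-long-chain 3-oxoacyl-CoA reductase-like (Mve16G010350), which acts in each round of chain lengthening, at 1.64, 2.44 and 2.09 FPKM against 7.38, 4.25 and 3.98 (log2 fold change -0.99 ± 0.37, edgeR adjusted p = 0.237). The most abundant members were an acyl-CoA desaturase-like gene (Mve01G007260), which introduces the double bond of oleate, at -0.56 ± 0.28, and fatty acid desaturase 5b (Mve01G021430) at -0.39 ± 0.35. The dehydratase Mve18G007880 had the smallest p on the higher side, at 0.69 ± 0.48.

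Genes that activate fatty acids and build glycerolipids had a median of 0.03 over 19 tested, of which 9 lay below 0. Without the accidental matches, which hold the letters of a list word inside another word, the median was -0.04. A cardiolipin synthase-like gene (Mve02G001520) was among those left out. At the unadjusted p 3 were lower (15.8%, beside 8.13% of all genes) and 0 higher (beside 9.29%). Those 3 were a plasmolipin-like gene (Mve06G004850, -1.21 ± 0.44), matched by accident like 8 further genes of the list, and, named after their values were seen, a diacylglycerol acyltransferase (Mve05G014940, -1.16 ± 0.44) and glycerol-3-phosphate acyltransferase 1 (Mve13G012780, -1.03 ± 0.37), which act at the last and first steps of triglyceride assembly. Perilipin-2-like (Mve10G011370), which coats lipid droplets, stood at 59.5 against 70.9 FPKM, a log2 fold change of 0.10 ± 0.22. A long-chain fatty acid-CoA ligase (Mve01G013230) was at 0.09 ± 0.18 and a diacylglycerol acyltransferase 1-like gene (Mve06G009420) at 0.32 ± 0.23.

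Mitochondria make fatty acids by a separate set of single-function enzymes. All 4 tested genes of that set lay above 0, beside 50.2% of all tested genes below it, with a median of 0.47, and of 0.30 with the length trend removed. Mitochondrial acyl carrier protein (Mve01G004890), which is also a part of respiratory complex I, stood at 163 against 166 FPKM, a log2 fold change of 0.31 ± 0.18, and enoyl reductase (Mve05G011890) at 0.71 ± 0.28 (edgeR adjusted p = 0.259). An estradiol 17-beta-dehydrogenase 8-like gene (Mve14G010890), whose mammalian relative serves this pathway, was at 0.50 ± 0.40.

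The mevalonate branch, which draws on the same cytosolic acetyl-CoA, had a median of 0.21 over 4 tested, all above 0 and 1 of them matched by accident, with HMG-CoA reductase (Mve10G007940) at 0.07 ± 0.25, cytosolic acetyl-CoA acetyltransferase (Mve05G013420) at 0.24 ± 0.21 and diphosphomevalonate decarboxylase (Mve06G003770) at 0.34 ± 0.26. Mitochondrial carboxylases that also carry biotin had a median of 0.06 over 6 tested, and of 0.23 with the length trend removed. Among them the beta chain of propionyl-CoA carboxylase (Mve15G005820) was at -0.44 ± 0.19 and the alpha subunit of methylcrotonoyl-CoA carboxylase (Mve11G011360) at 0.29 ± 0.17. In both lists 0 genes passed the unadjusted p.

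**Figure D4:**
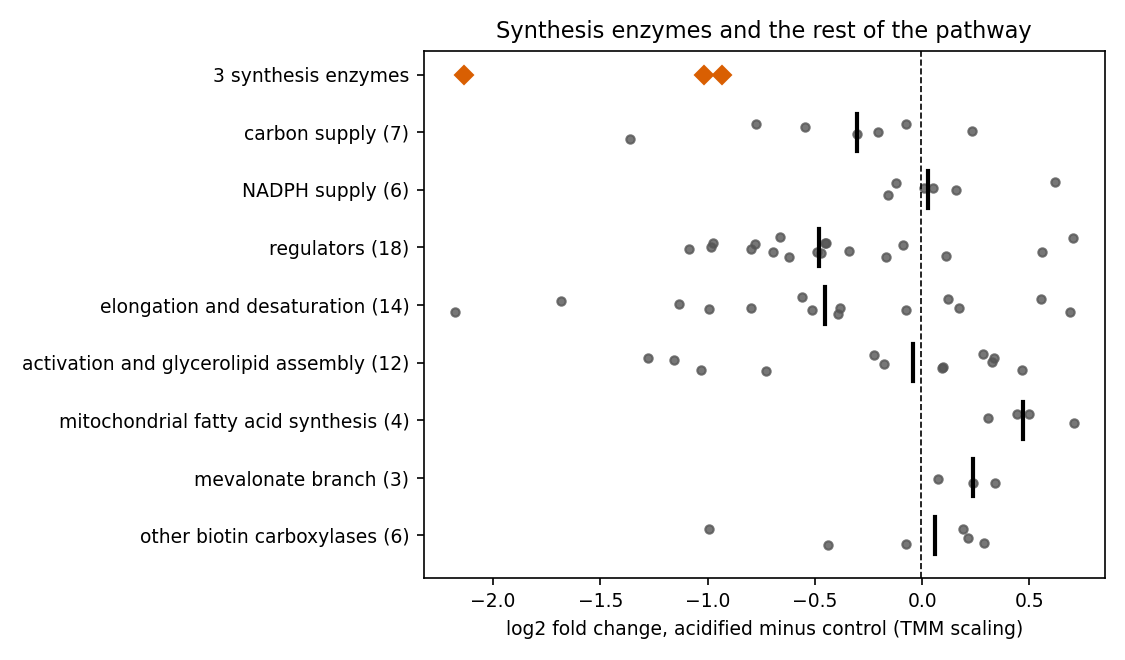
Log2 fold change (acidified minus control, TMM scaling) of the 3 synthesis enzymes (diamonds) and of the tested genes of each pathway list (dots, number in brackets, accidental matches left out, black bar at the median, vertical scatter for display). The dashed line is the median of all tested genes, and the regulators and the carbon supply genes lie mostly to its left.

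Genes with the most similar profiles were looked for among 11129 tested genes with an informative description, by the root mean square difference of centred log2 CPM over the 6 libraries. The closest to acetyl-CoA carboxylase was the very-long-chain 3-oxoacyl-CoA reductase-like gene described above, at 0.11, followed by a Niemann-Pick C1-like gene (Mve18G002840, a sterol transporter of lysosomes) at 0.12 and the SREBP-1-like gene Mve09G009630 at 0.13. The closest to ATP-citrate synthase were a flocculation protein FLO11-like gene (Mve13G000810) at 0.11, a WD repeat and HMG-box DNA-binding protein (Mve02G016460) at 0.12 and a TRIP12-like ubiquitin ligase (Mve15G000700) at 0.14. No gene came as close to fatty acid synthase: the nearest were a tetratricopeptide repeat protein 39B-like gene (Mve03G008400) at 0.31 and a pair of heparan sulfate 3-O-sulfotransferase 6-like genes (Mve09G007010 and Mve09G013850), both at 0.31. Such profiles share the library contrast, depth and scaling.

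Markers of other tissues were set beside these values, as summed FPKM per library, which is not TMM scaled, and as log2 fold changes with TMM scaling. The digestive gland list, 27 genes with 4 at no count in any library, ran from 306 to 334 in the acidified libraries and from 244 to 300 in the controls. The total FPKM over all genes was also larger in the acidified libraries, from 650267 to 695998 against 591553 to 608803 in the controls. The median log2 fold change of the list was 0.23 over 16 tested genes, accidental matches included, and 0.50 without those. A pancreatic lipase-related protein 2-like gene (Mve03G012110) at a mean of 118 FPKM and a pancreatic triacylglycerol lipase-like gene (Mve18G004440) at 59.8 made up much of the sum. The alpha-amylase Mve02G006580, a defining marker named after its values were seen, was at 0.26. It had 0, 0 and 13 counts in the acidified libraries and 4, 126 and 0 in the controls. Most of its counts were thus in control replicate 2, unlike the sum. Nerve markers, 52 genes with 4 at no count, led by synaptotagmin 1 (Mve05G011100, mean 11.6 FPKM) and a neuroendocrine convertase 1-like gene (Mve06G005060, 8.62), ran from 54.1 to 68.0 against 75.8 to 82.9. With TMM scaling the nerve median was only -0.08 over 38 tested. The acidified libraries all lay below the controls in 1 gene (2.63%, beside 13.4% of all genes) and all above in 4. The share of all genes in that higher direction is not given, so nothing is read from the 4. Muscle markers (33 genes, 2581 to 4207 against 3564 to 5312), haemocyte markers (28 genes, 97.5 to 109 against 101 to 163) and germ line markers (14 genes, 22.0 to 26.5 against 18.2 to 25.8) overlapped between the groups in these sums, and 1 gene of each of these lists had no count. Muscle genes nevertheless lay mostly on the same side as the enzymes with TMM scaling: 23 of 28 tested were below 0, beside 50.2% of all tested genes. Their median log2 fold change was -0.39, and -0.18 with the length trend removed. Their median transcript length was 1.55 times that of the median tested gene. At the unadjusted p 4 lay lower (14.3%, beside 8.13% of all genes) and 0 higher (beside 9.29%). In 5 (17.9%, beside 13.4% of all genes) the acidified libraries all lay below the controls. The medians were -0.03 for haemocyte and 0.14 for germ line markers. The 3 lists were led by paramyosin (Mve09G008510, mean 1845 FPKM) and tropomyosin (Mve10G006090, 497), by a haemocyte transglutaminase-like gene (Mve06G014840, 42.0) and peroxidasin (Mve03G013840, 19.3), and by the PIWI genes Mve11G006630 (5.91) and Mve11G006200 (5.76). The part of such cells in the enzymes' difference was not tested.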

How the data were processed

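Mantle RNA was sequenced in 3 acidified and 3 control libraries, grouped by their titles. Per the labels' protocols, poly(A) RNA was made into strand-marked libraries. Per the submitters' processing notes, cutadapt 1.9, HISAT2 2.2.1, StringTie 2.1.6, DESeq2 and edgeR were used, with settings that no source used here gives. Per the file headers, the authors deposited raw counts per gene and FPKM values (scaled to transcript length and depth). Another 12 columns belong to libraries outside the sample list and stayed unused.

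From the counts, edgeR 4.0.16 (R 4.3.3) was run with filterByExpr, TMM scaling, a quasi-likelihood fit of group alone and Benjamini-Hochberg adjustment over 17790 genes, with 7355 set aside. The SE of a log2 fold change was derived from the F statistic. Relative transcript length is the median over libraries of count over FPKM, for counts of at least 10, after library constants were removed. Profiles used log2 CPM with a prior count of 2. Alternatives were DESeq2 1.42.0, limma 3.58.1 on log2 FPKM with pseudocounts of 1 or 0.1 (mean FPKM of at least 0.5, or no filter), other scalings, no count filter, a replicate block, length trend removal and leaving out each library. The procedure was tested on simulated data.

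The members and lists were chosen with earlier results of these data known. Named genes are the members, the 2 most abundant genes of each pathway list, its smallest p per direction, the 3 closest profiles per member, the 2 most abundant genes of each marker list (accidental matches left out) and the genes described as the enzymes. Further genes were named after their values were seen: some regulators, the citrate carrier, the remaining carbon supply genes, acyltransferases, the alpha-amylase, and the relatives and neighbours under the closing observations. No sequences are shown.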

Additional observations from a re-analysis of the deposited data

How the results depend on the processing

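The log2 fold changes of the 3 enzymes stayed below 0 under all 15 alternatives run on them, from -2.43 to -1.67 for fatty acid synthase, from -1.34 to -0.62 for acetyl-CoA carboxylase and from -1.28 to -0.61 for ATP-citrate synthase. Beyond 1 SD between replicates, only acetyl-CoA carboxylase moved, to -0.62 with the length trend removed. Leaving out each library gave -2.43 to -1.67, -1.19 to -0.78 and -1.20 to -0.75. Over all genes, edgeR and limma called 0 under every other alternative, DESeq2 called 1237 (711 higher and 526 lower), and edgeR called 0 to 2 with each library left out, 2 of them without acidified replicate 1. Among the pathway lists DESeq2 called 5, and edgeR called 0 with any library left out. The median of the pathway lists was -0.47 with library size as the only scaling, -0.37 on log2(FPKM + 1), -0.46 on log2(FPKM + 0.1) and -0.34 on log2(FPKM + 1) without a filter, where the median of all genes was -0.33, -0.23, -0.31 and -0.11. It ran from -0.22 to -0.10 with each library left out. Without accidental matches, an alternative chosen after seeing the data, it was -0.18. With the replicate number as a block the enzymes stood at -2.02, -0.99 and -0.97, with 0 calls and a pathway median of -0.14. Same-numbered libraries did not deviate together (correlations of 0.01, -0.04 and -0.01). With so few libraries per group this cannot show whether the numbers pair them, and the labels do not say.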

Other observations

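The table gives 13 genes the KEGG entry of animal fatty acid synthase, and 10 of these passed the filter on low counts. Of the 10, 9 lay below 0, beside 50.2% of all tested genes, the fatty acid synthase described above included. The transcripts of the 10 were longer than that of the median tested gene, and long transcripts lay lower in general. That fatty acid synthase held 49.9% of the summed mean FPKM of the 13 genes in the controls and 40.1% in the acidified libraries. Beside that gene, which was chosen for being lower, the acidified libraries all lay below the controls in 1 gene of the family, Mve09G014630. Over all tested genes that share was 13.4%. This family was looked up after the values were seen, and it is described without a test.

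Other genes described as fatty acid synthase were scarce. Mve06G012170 stood at 1.02 FPKM in the acidified and 1.48 in the control libraries, with a log2 fold change of -0.16 ± 0.33, while Mve01G010190 and Mve10G007950 had under 0.1 FPKM in each group. Mve09G004750, described as a medium-chain fatty acid synthase thioesterase-like gene and without that KEGG entry, was at -0.02 ± 0.37. Genes described as fusarin C synthetase-like, relatives of polyketide synthases, made up most of the rest. Mve07G007270, the most abundant of them at 13.8 against 20.0 FPKM, was at -0.21 ± 0.29. A further 4, all on chromosome 9, lay lower: Mve09G006170 at -1.24 ± 0.41, Mve09G014630 at -1.54 ± 0.39, Mve09G014660 at -1.52 ± 0.50 and Mve09G014690 at -1.57 ± 0.50. The last 3 lie close together and share a description. Their separate values are uncertain, since the counting could split reads between such copies.

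The nearest genes on the chromosome were also looked at, after the values of the enzymes were seen. The gene after fatty acid synthase, Mve01G012420, described as major facilitator superfamily domain-containing protein 6-like, starts 14361 bases further on, on the opposite strand. At a mean of 0.407 FPKM over the 6 libraries it was scarce, with 36, 4 and 0 counts in the acidified and 89, 55 and 55 in the control libraries, and a log2 fold change of -1.93 ± 1.27 (SE). The gene before it, Mve01G012400, had no count in any library. The gene after ATP-citrate synthase, Mve12G006370, which has no description, was at -0.68 ± 0.19, and the gene after acetyl-CoA carboxylase, Mve05G013750, at -0.59 ± 0.40.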
